A study of Mus musculus with 45 samples.

Results

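Imprinted genes were followed through the conversion of mouse embryonic fibroblasts (MEFs) into muscle cells and muscle progenitors. The list held 34 genes, chosen by name from the known imprinted clusters of the mouse, of 35675 genes in the RNA-seq files. Earlier results of these data were known when the list was chosen, so its counts beside those of all genes are descriptions only. Each gene's reads were the sum over its transcripts. Of the 34, 33 passed the filter on low counts and entered the tests, and Nap1l5, a nucleosome assembly protein gene, did not: it had 0 to 9 reads in any library.

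An imprinted gene is transcribed mainly from the copy inherited from one parent. The choice is laid down in the germ line as DNA methylation at an imprinting control region, and 1 such region usually governs a cluster that holds both maternally and paternally expressed genes and often a long noncoding RNA. Many imprinted genes act on growth, with paternally expressed members such as Igf2 promoting it and maternally expressed members such as H19, Igf2r and Grb10 restraining it. In muscle, Igf2 and H19 are turned on during differentiation, Dlk1 and the Meg3 domain are active in fetal and regenerating muscle, and Peg3 and Plagl1 belong to the set of imprinted genes co-expressed in growing tissues. The files hold summed counts, so the parental copy read in these cells was not measured.

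The 45 libraries fell into 15 groups of 3, and cells of every group carried the Pax7-nGFP reporter transgene on a mixed C57BL6;DBA2 background (Tg:Pax7-nGFP/C57BL6;DBA2). Untreated MEFs were the start. MEFs with doxycycline-inducible MyoD, the transcription factor that turns fibroblasts into muscle, were given doxycycline alone (called MyoD here, labelled myotubes) or with a set of small molecules labelled F/R/C (called MyoD+F/R/C, labelled muscle fibers and progenitor cells), and sampled on days 2, 4, 6, 8 and 10 of each. Established induced myogenic progenitor cells (iMPCs) were kept in medium with F/R/C after 13 days of doxycycline and F/R/C, and sequenced in bulk. iMPCs were also sorted for the Pax7 reporter (Pax7+ iMPCs). Primary myoblasts from skeletal muscle were untreated and sequenced in bulk or sorted for the same reporter (Pax7+ myoblasts). Established iMPCs are clones that no longer need doxycycline, the labels do not tie a library to a clone, and the ages of the animals and the doses are not given in the sources used here. Nothing in the labels says that the 3 libraries of a group came from separate cultures or animals, so a p-value measures the spread between these libraries, which may be technical.

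Depth ran from 15.64 M to 36.28 M reads per library (median 22.10), with the 3 bulk iMPC libraries among the deepest at 33.19 to 36.28 M. Fibroblast markers summed to 10398 to 14419 CPM (read counts scaled to each library’s size) in MEFs and 266 to 913 in Pax7+ myoblasts, but still to 2980.0 to 11263 in the day-10 MyoD libraries labelled myotubes. Differentiated-muscle markers summed to 51.9 to 154 CPM in MEFs and to 8914 to 31625 and 12125 to 20157 on day 10 of MyoD and MyoD+F/R/C. Pax7 and Myf5, which mark progenitors, had at most 3 reads in every MyoD library of days 2 to 8, and exceeded that with F/R/C from day 4. Endothelial and immune markers stayed at or below 9.30 and 11.2 CPM in every library. Schwann or neural markers summed to 9.43 to 18.1 CPM in MEFs, 110.1 to 427 and 98.7 to 191 on day 10 of MyoD and MyoD+F/R/C, 97.8 to 172 in bulk iMPCs and 10.0 to 12.3 in Pax7+ myoblasts. Of that list Sox10, a transcription factor that marks the glial lineage, had at most 3 reads in every library outside day 10 of MyoD+F/R/C and bulk iMPCs. The part of these markers in the results was not tested. 3 sets of libraries stood apart before any test. MEF replicate 1 was above the other MEF libraries for H19 (542, 70.0 and 109 CPM in replicates 1 to 3), Peg3 (706, 155 and 188) and Slc38a4 (132, 34.1 and 37.2). Bulk myoblast replicate 3 had the lowest H19 (14586, 11470 and 2203) and a differentiated-muscle sum of 1085 CPM against up to 30187 in its group. MyoD replicate 2 had the highest H19 of its group on days 4 to 10 (8972, 15154 and 6046 on day 8 and 7559, 14561 and 5097 on day 10). On day 10 it also had the lowest fibroblast sum (11263, 2980.0 and 9126 CPM), the highest differentiated-muscle sum (14469, 31625 and 8914), the highest Schwann or neural sum (246, 427 and 110.1) and the lowest proliferation sum (313, 33.5 and 285). Calls that were gained or lost without one of these libraries are given beside the result. Values for libraries are always in the order of replicates 1, 2 and 3, and CPM are scaled to the effective library size.

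A gene was called when its adjusted p was under 0.05 and its log2 fold change was at least 1 in size, in 1 model over all 45 libraries and 17325 genes. The median span of the group means, from the lowest group to the highest, was 4.89 on the log2 CPM scale over the 33 tested, against 2.05 over all genes tested, and the median SD among the 3 libraries of a group was 0.66 against 0.42. H19 ranked between the second and the fourteenth most abundant gene per length in every group other than MEFs. In MEFs the most abundant member per length was Gnas, at 1719 ± 159 TPM (kallisto’s level per transcript length; mean ± SD of 3 libraries), followed by Meg3 at 1675 ± 595, with H19 at 195 ± 215. The 34 genes together made up 5110 ± 812 TPM in MEFs and 28680 ± 4320 TPM in day-4 MyoD+F/R/C cells, the group with the largest mean sum. H19 and Igf2 gave 6.48% of that sum in MEFs and 47.2 to 80.0% in the other groups.

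**Figure D1:**
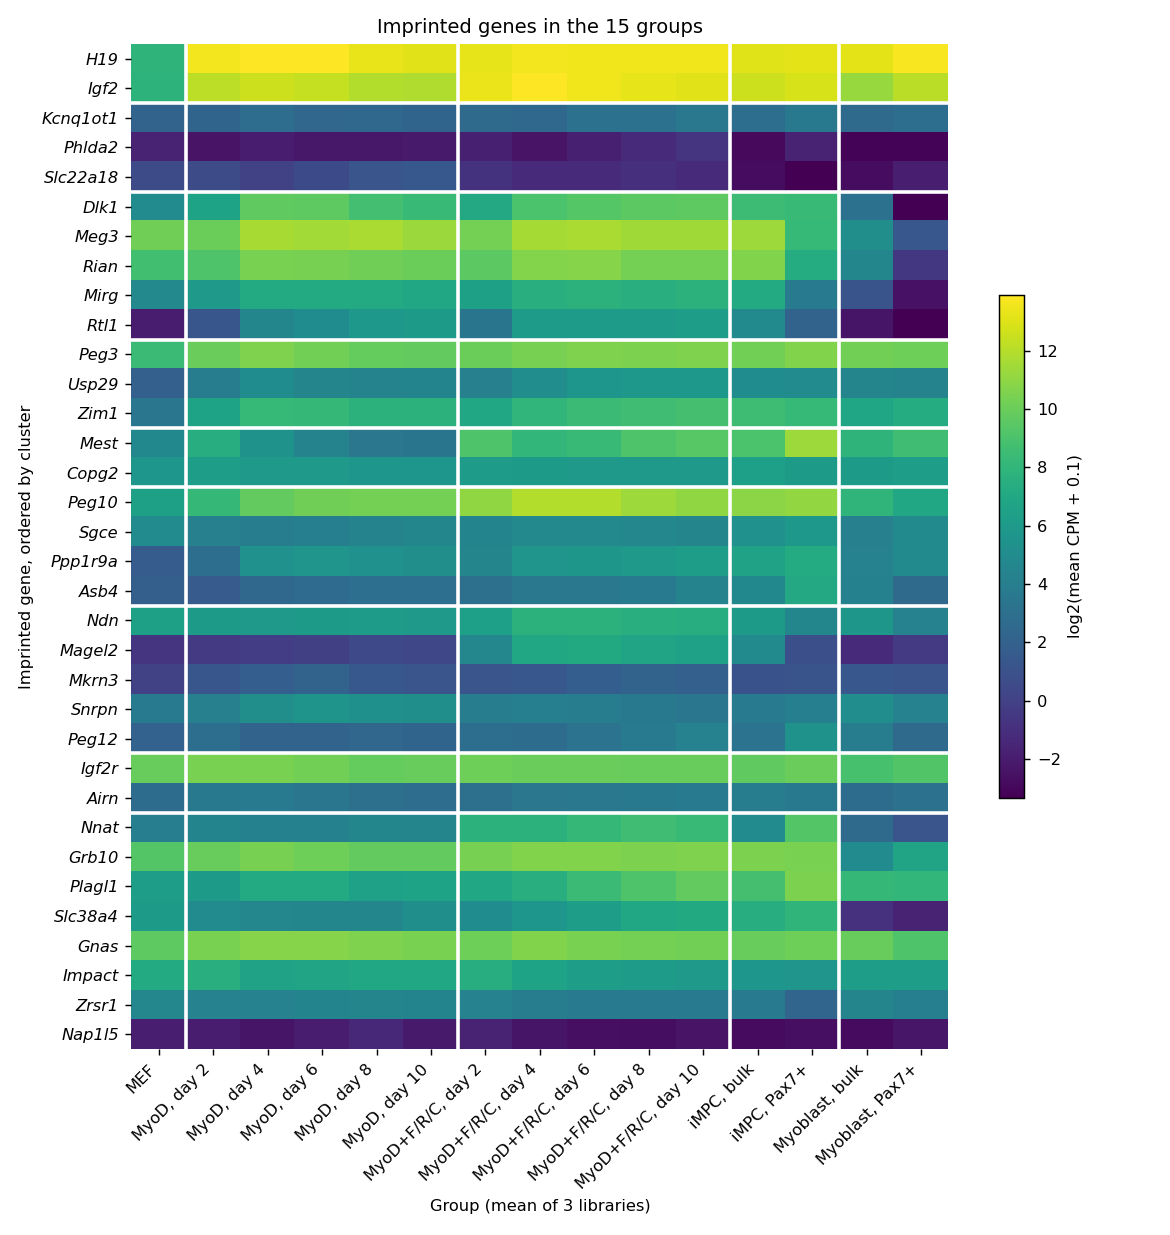
Mean level of each of the 34 imprinted genes (rows, by cluster) in the 15 groups (columns, mean of 3 libraries), as log2 of CPM plus 0.1. H19 and Igf2 are dimmer in MEFs than in all other groups. The Dlk1-Meg3 rows and Slc38a4 are darker in both myoblast groups than in bulk iMPCs.

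Within 2 days of MyoD, 10 imprinted genes rose and 0 fell. Of all genes tested, 12.3% were called higher and 10.1% lower. They were H19, Igf2, Mirg, Rtl1, Peg3, Usp29, Zim1, Mest, Peg10 and Ppp1r9a, from 5 clusters. With F/R/C present, the same comparison gave 12 higher and 0 lower (all genes: 11.5% and 8.93%), with Magel2 and Nnat in addition. On day 10 of MyoD, 12 were higher and 0 lower than in MEFs (all genes: 14.3% and 4.64%). On day 10 of MyoD+F/R/C 21 were higher and 2, Impact and Slc22a18, lower (all genes: 19% and 15.8%). These comparisons share the 3 MEF libraries, and in bulk samples such as these fewer cells of a type and less RNA per cell cannot be told apart. Whichever library was left out, 6 of the 10, 12 of the 12, 8 of the 12 and 19 of the 23 kept their calls. Of the others on day 2 of MyoD, Mirg lost its call without MEF replicate 1, MEF replicate 3, day-2 MyoD replicate 2 or day-2 MyoD replicate 3 (adjusted p = 0.0583 to 0.166). Peg3 lost it without MEF replicate 2 (adjusted p = 0.0537). Peg10 lost it without MEF replicate 2, MEF replicate 3 or day-2 MyoD replicate 2 (adjusted p = 0.0699 to 0.0762). Ppp1r9a lost it without MEF replicate 2 or MEF replicate 3 (adjusted p = 0.0831 to 0.11). Without MEF replicate 1, Airn was called on day 2 of MyoD (log2 fold change 1.24, adjusted p = 0.0239). The number called on day 10 of MyoD fell to 8 without day-10 MyoD replicate 2, which ended the calls of Dlk1, Rian, Peg3 and Snrpn (the last: log2 fold change 1.12, adjusted p = 0.073).

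The direct comparison of the arms asked what F/R/C added to MyoD. On day 2, 4 imprinted genes were higher with F/R/C than with MyoD alone and 0 lower (all genes: 2.13% and 2.8%). They were Magel2, Nnat, Peg10 and Ppp1r9a. On day 10, 13 were higher and 2 lower (all genes: 9.91% and 13.4%). Over the average of the 5 days 11 were higher and 2 lower (all genes: 11.6% and 10.5%). The fit took the libraries of the 5 days as separate. Whether a replicate number marks 1 series followed over the days is not given in the labels, so the p-values of this average may be too small. The count on day 10 was 9 without day-10 MyoD replicate 3 and 18 without day-10 MyoD replicate 2, against 15 with both, and 9 of the 15 kept the call whichever library was left out. The 6 that did not were Usp29, Zim1, Ppp1r9a, Ndn, Airn and Phlda2. The 3 gained without day-10 MyoD replicate 2 were Igf2, Mirg and Peg3. Over the 5 days Usp29 was gained without MyoD replicate 2 of day 8 or of day 10 (log2 fold change 1.04 and 1.06). On day 10 proliferation genes summed to 371 to 828 CPM in the F/R/C arm and 33.5 to 313 in the MyoD arm. Fibroblast genes summed to 1041 to 4704 and 2980.0 to 11263, and differentiated-muscle genes to 12125 to 20157 and 8914 to 31625, and their part in the results was not tested. The F/R/C effect itself was larger on day 10 than on day 2 for 3 genes, Mest, Peg12 and Plagl1, and smaller for 0 (all genes: 2.24% and 3.77%). Of the 3, 1, Mest, was called whichever library was left out. Airn was called as well with RLE scaling (log2 fold change 1.65, adjusted p = 0.0458) and without day-10 MyoD replicate 2 (log2 fold change 2.22, adjusted p = 0.0121). Libraries with the same number deviated together on day 2 (correlations of 0.346 to 0.375 over all 3 pairs). With that number as a block, 5 genes were higher and 1 lower on day 2, in place of 4 and 0. The added genes were Rtl1, higher (log2 fold change 2.06, adjusted p = 0.0468), and Slc22a18, lower (log2 fold change -1.77, adjusted p = 0.0433).

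**Figure D2:**
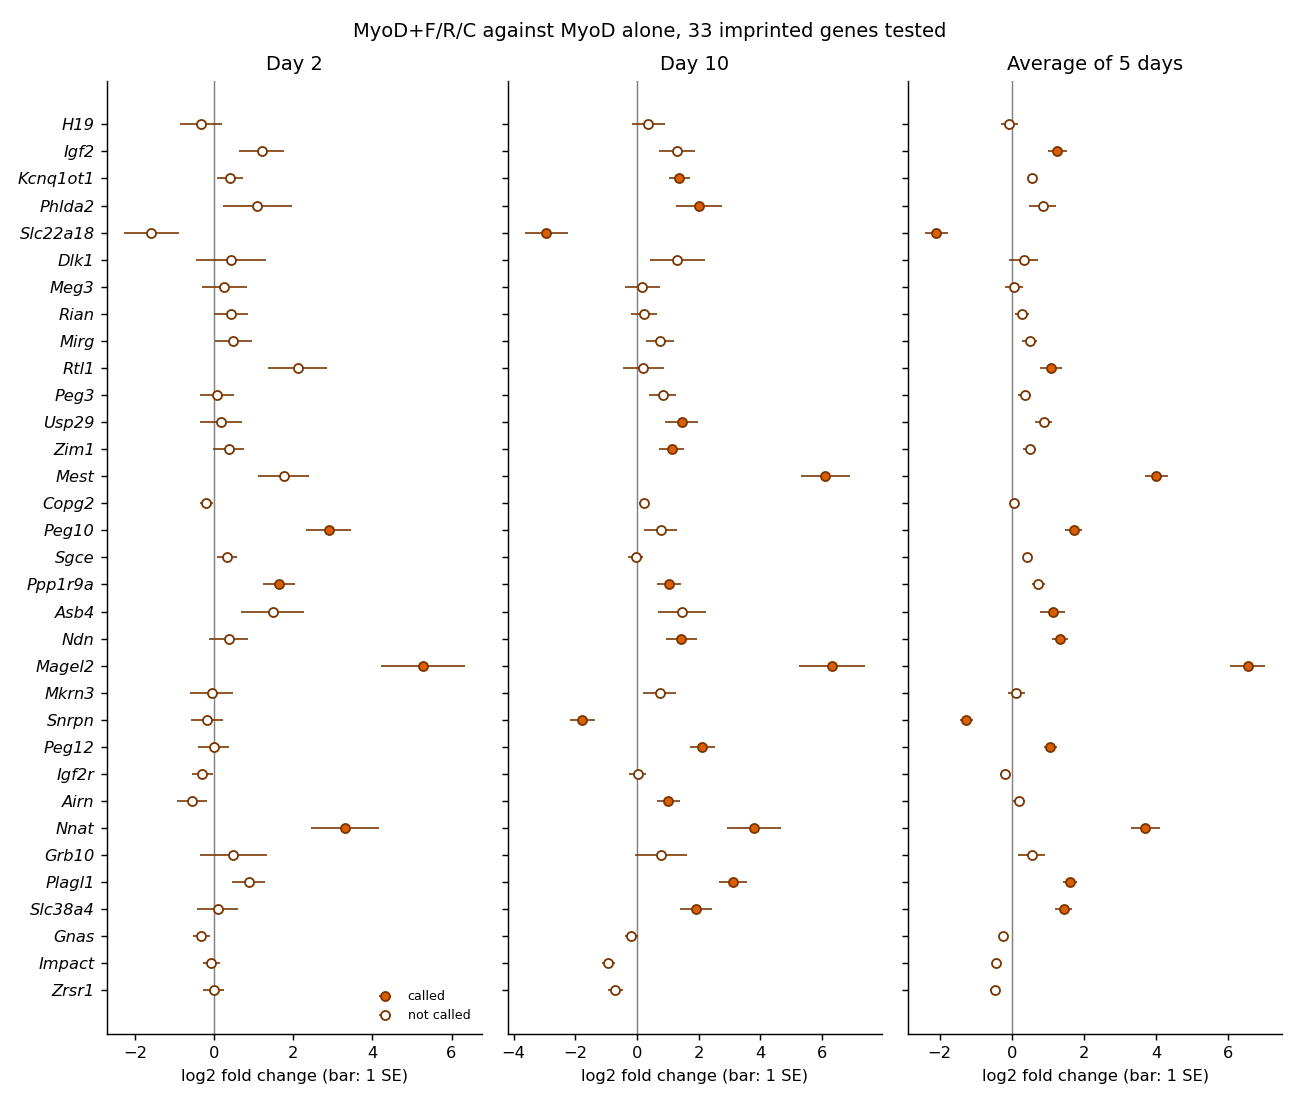
Log2 fold change of MyoD+F/R/C against MyoD alone for the 33 imprinted genes tested, on day 2, on day 10 and over the average of 5 days; bars are 1 SE and filled points passed the call. On day 10 and over the average, Magel2, Mest and Nnat sit farthest to the right, and Slc22a18 and Snrpn are the called genes to the left. On day 2 the called genes are Magel2, Nnat, Peg10 and Ppp1r9a, all to the right.

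H19 and Igf2 share 1 imprinting control region and enhancers on chromosome 7 and are read from opposite parental copies. Igf2 (chr7:142650766-142666816, minus strand, protein coding) encodes insulin-like growth factor 2, a fetal growth factor that muscle cells secrete as they differentiate, and H19 (chr7:142575529-142578143, minus strand) is a noncoding RNA and the host of a microRNA. The 300 bases at the start that carried most Igf2 reads outside MEFs are shown (RefSeq start 142657496, chr7:142657447-142657746, minus strand, build GRCm38.p6, RefSeq). Each CG, the letters that DNA methylation acts on, is in capitals. The windows printed in this report are transcript starts, and the methylation of their CG was not measured.
Igf2: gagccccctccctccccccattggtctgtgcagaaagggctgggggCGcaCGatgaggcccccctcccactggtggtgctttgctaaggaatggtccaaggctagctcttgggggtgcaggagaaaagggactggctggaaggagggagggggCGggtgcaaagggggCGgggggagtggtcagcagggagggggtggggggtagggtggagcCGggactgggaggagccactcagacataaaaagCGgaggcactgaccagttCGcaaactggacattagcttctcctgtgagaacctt
Igf2 rose from 346, 272 and 56.4 CPM in MEFs to 3488, 5178 and 5323 after 2 days of MyoD and 8303, 12826 and 10884 after 2 days of MyoD+F/R/C. Every induced library was above every MEF library, and on each of the 5 days the 3 F/R/C values exceeded the 3 MyoD values. Both arms peaked on day 4 (5122, 7077 and 6176 against 13805, 16182 and 15275). Over the average of 5 days Igf2 was higher with F/R/C (log2 fold change 1.26, adjusted p = 7.05e-05, SE 0.25), while on day 2 and day 10 alone the difference was not called (adjusted p = 0.208 and 0.067). When the 2 groups of a day were fitted alone it was called on both days (adjusted p = 0.0107 and 0.0358). On day 10 it was also called without day-10 MyoD replicate 2 (log2 fold change 1.84, adjusted p = 0.028) and by DESeq2 (adjusted p = 0.032). H19 also rose from MEFs, and its average difference between the arms was not called: it went from 542, 70.0 and 109 CPM to 9637, 13586 and 13830 with MyoD and 7874, 10869.7 and 10751 with F/R/C on day 2. Day 2 of MyoD against MEFs gave log2 fold change 5.68, adjusted p = 3.93e-08, SE 0.65, and the average of the arms' differences was -0.07 on the log2 scale (adjusted p = 0.825, SE 0.24).

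The ratio of Igf2 to H19 TPM within a library lay at different levels in the 2 arms. It was 0.271, 0.301 and 0.293 on day 2 of MyoD and 0.856, 0.976 and 0.828 on day 2 of MyoD+F/R/C, and 0.306, 0.270 and 0.333 against 0.531, 0.651 and 0.568 on day 10. MyoD group means stayed between 0.257 and 0.314 over the 5 days, and MyoD+F/R/C means fell from 0.980 on day 4 to 0.583 on day 10, with no overlap of libraries on any day. Bulk iMPCs had 0.438, 0.373 and 0.400 and Pax7+ iMPCs 0.357, 0.530 and 0.365, above all MyoD libraries, whereas both myoblast groups had the lowest ratios, 0.215, 0.120 and 0.108 in bulk and 0.121, 0.161 and 0.197 after sorting. In MEFs, where both genes were low, the ratio ran from 0.343 to 3.14. The ratio was set up after the values were seen and has no test. TPM depend on effective transcript lengths and on how kallisto divides reads among the transcripts of a gene. The median difference between length and effective length was 180.03 bases in sorted and 152.81 in unsorted libraries. The part of these lengths in the order of the groups was not tested.

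**Figure D3:**
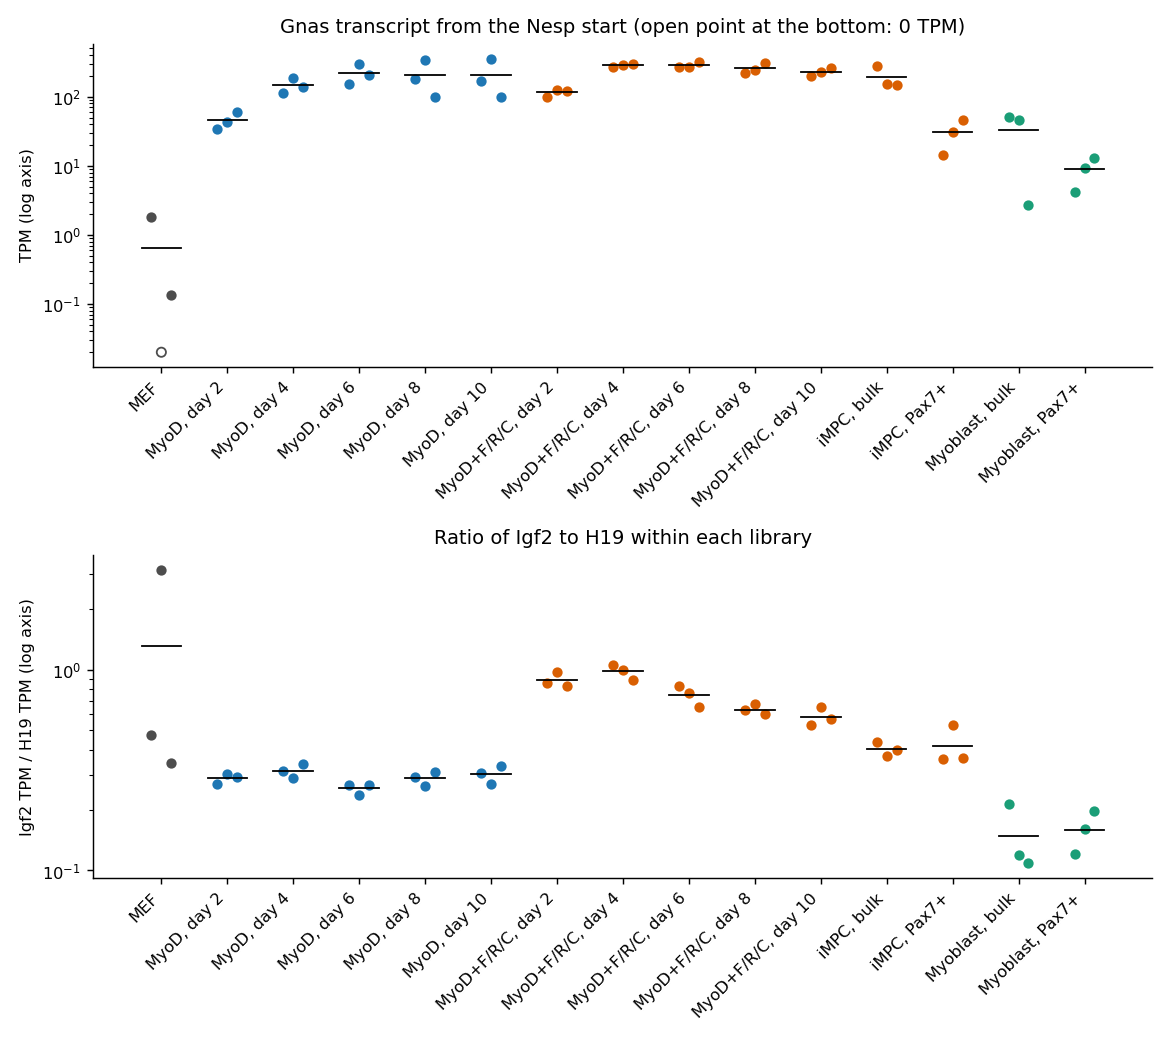
Upper panel: TPM of the Gnas transcript from the Nesp start in each library of the 15 groups (log axis; bar, group mean). Lower panel: Igf2 TPM divided by H19 TPM in each library (log axis), with MyoD libraries between 0.237 and 0.339, MyoD+F/R/C libraries between 0.531 and 1.06 and myoblast libraries between 0.108 and 0.215.

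In iMPCs and myoblasts H19 was high and variable. It was 9669, 6178 and 9909 CPM in bulk iMPCs, 10453, 9176 and 9047 in Pax7+ iMPCs, 14586, 11470 and 2203 in bulk myoblasts and 6137, 14357 and 21098 in Pax7+ myoblasts. None of the 4 comparisons among these groups was called. Igf2 was 7243, 3998 and 7139 CPM in bulk iMPCs and 4357, 2512 and 289 in bulk myoblasts. The difference was not called by edgeR (adjusted p = 0.0649) and passed in DESeq2 (adjusted p = 0.0381). It was also called without bulk myoblast replicate 1 or bulk iMPC replicate 2 (adjusted p = 0.0138 and 0.0469). The lowest values of both genes came from bulk myoblast replicate 3. By transcript start, the start at 142657496 held 60.3% of Igf2 TPM on day 2 of MyoD, 52.5% on day 10 of MyoD+F/R/C, 81.6% in bulk iMPCs and 93.1% in Pax7+ myoblasts. kallisto divides the reads shared by transcripts through a model, and these shares were not tested.

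The receptor and the adaptor of the growth axis behaved differently from the ligand. Igf2r (chr17:12682406-12769664, minus strand), the receptor that takes Igf2 up for degradation, was called in none of the 14 comparisons, with group means from 467 CPM in bulk myoblasts to 1402 on day 4 of MyoD. It was called higher in bulk iMPCs than in bulk myoblasts without bulk myoblast replicate 1 or 2 (log2 fold change 1.19 and 1.02). Airn, the antisense RNA that silences Igf2r on the paternal copy, was low (3.24 to 17.1 CPM over all libraries) and was higher on day 10 of MyoD+F/R/C than in MEFs (log2 fold change 1.11, adjusted p = 0.0136, SE 0.38). It overlaps Igf2r, and the strand setting of the counting is not given in the sources used here. Grb10 (chr11:11930508-12038683, minus strand) encodes an adaptor that dampens insulin and IGF receptor signalling, and is maternally expressed outside the brain. Its main start in these files (12037420; chr11:12037371-12037670, minus strand, build GRCm38.p6, RefSeq, CG in capitals) lies in a window with 45 CG.
Grb10: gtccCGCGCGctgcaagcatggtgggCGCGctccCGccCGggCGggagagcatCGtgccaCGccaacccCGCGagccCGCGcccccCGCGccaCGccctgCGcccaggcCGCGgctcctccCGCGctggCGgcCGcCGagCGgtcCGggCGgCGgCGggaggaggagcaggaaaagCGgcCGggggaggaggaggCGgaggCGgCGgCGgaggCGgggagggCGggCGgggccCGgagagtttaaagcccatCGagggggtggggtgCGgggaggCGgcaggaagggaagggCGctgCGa
Grb10 was 541, 736 and 586 CPM in MEFs, 964, 998 and 656 on day 10 of MyoD and 1429.8, 1714 and 1377 on day 10 of MyoD+F/R/C, and no comparison of these groups was called in the fit over all libraries. With the 2 groups fitted alone, Grb10 was called higher than in MEFs on day 2 of MyoD+F/R/C (log2 fold change 1.11, adjusted p = 0.00404), on day 10 of MyoD+F/R/C (log2 fold change 1.35, adjusted p = 0.00233) and in bulk iMPCs (log2 fold change 1.23, adjusted p = 0.00442). Bulk and Pax7+ iMPCs kept that level (1541, 1135 and 1649.9 and 1196, 1228 and 1742). Myoblasts did not: bulk libraries had 14.0, 80.3 and 0.546 CPM and Pax7+ libraries 14.8, 295 and 2.83. Every iMPC library lay above every myoblast library. Grb10 was higher in bulk iMPCs than in bulk myoblasts (log2 fold change 5.51, adjusted p = 0.000117, SE 1.02). It was also higher in Pax7+ iMPCs than in Pax7+ myoblasts (log2 fold change 3.74, adjusted p = 0.00139, SE 0.94). The myoblast libraries themselves differed widely, with the lowest value in bulk myoblast replicate 3. Neither difference was called when its 2 groups were fitted alone (adjusted p = 0.073 in bulk and 0.102 after sorting). The main start gave 366 ± 81.9 TPM in bulk iMPCs, 79.6% of the gene, and 9.32 ± 14.2 TPM in bulk myoblasts.

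Plagl1 (chr10:13060504-13131694), a paternally expressed zinc-finger transcription factor known to regulate other imprinted genes, climbed through the 10 days of MyoD+F/R/C. It was 143, 37.4 and 49.6 CPM in MEFs, 142, 94.5 and 126 on day 2, 245, 373 and 399 on day 6 and 909, 1060.1 and 656 on day 10 of MyoD+F/R/C, against 60.1, 114 and 132 on day 10 of MyoD. The day-10 difference between the arms was called (log2 fold change 3.10, adjusted p = 5.62e-06, SE 0.45) and the day-2 difference was not (adjusted p = 0.222). The change of the F/R/C effect from day 2 to day 10 was itself called (log2 change 2.23, adjusted p = 0.0208, SE 0.60). It lost that call without day-10 MyoD replicate 1 or day-10 MyoD+F/R/C replicate 2 (adjusted p = 0.0522 to 0.0587). Without MEF replicate 1, Plagl1 was called higher than in MEFs on day 2 of MyoD+F/R/C (log2 fold change 1.47, adjusted p = 0.0114) and on day 10 of MyoD (log2 fold change 1.20, adjusted p = 0.0413). Bulk iMPCs had 418, 287 and 649 CPM and Pax7+ iMPCs 913, 1654 and 1836, the highest of all groups and above both myoblast groups (419, 258 and 192 in bulk, 194, 139 and 464 sorted). Pax7+ iMPCs were higher than Pax7+ myoblasts (log2 fold change 2.47, adjusted p = 2.97e-05, SE 0.44) and than bulk iMPCs (log2 fold change 1.70, adjusted p = 0.00154, SE 0.43).

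**Figure D4:**
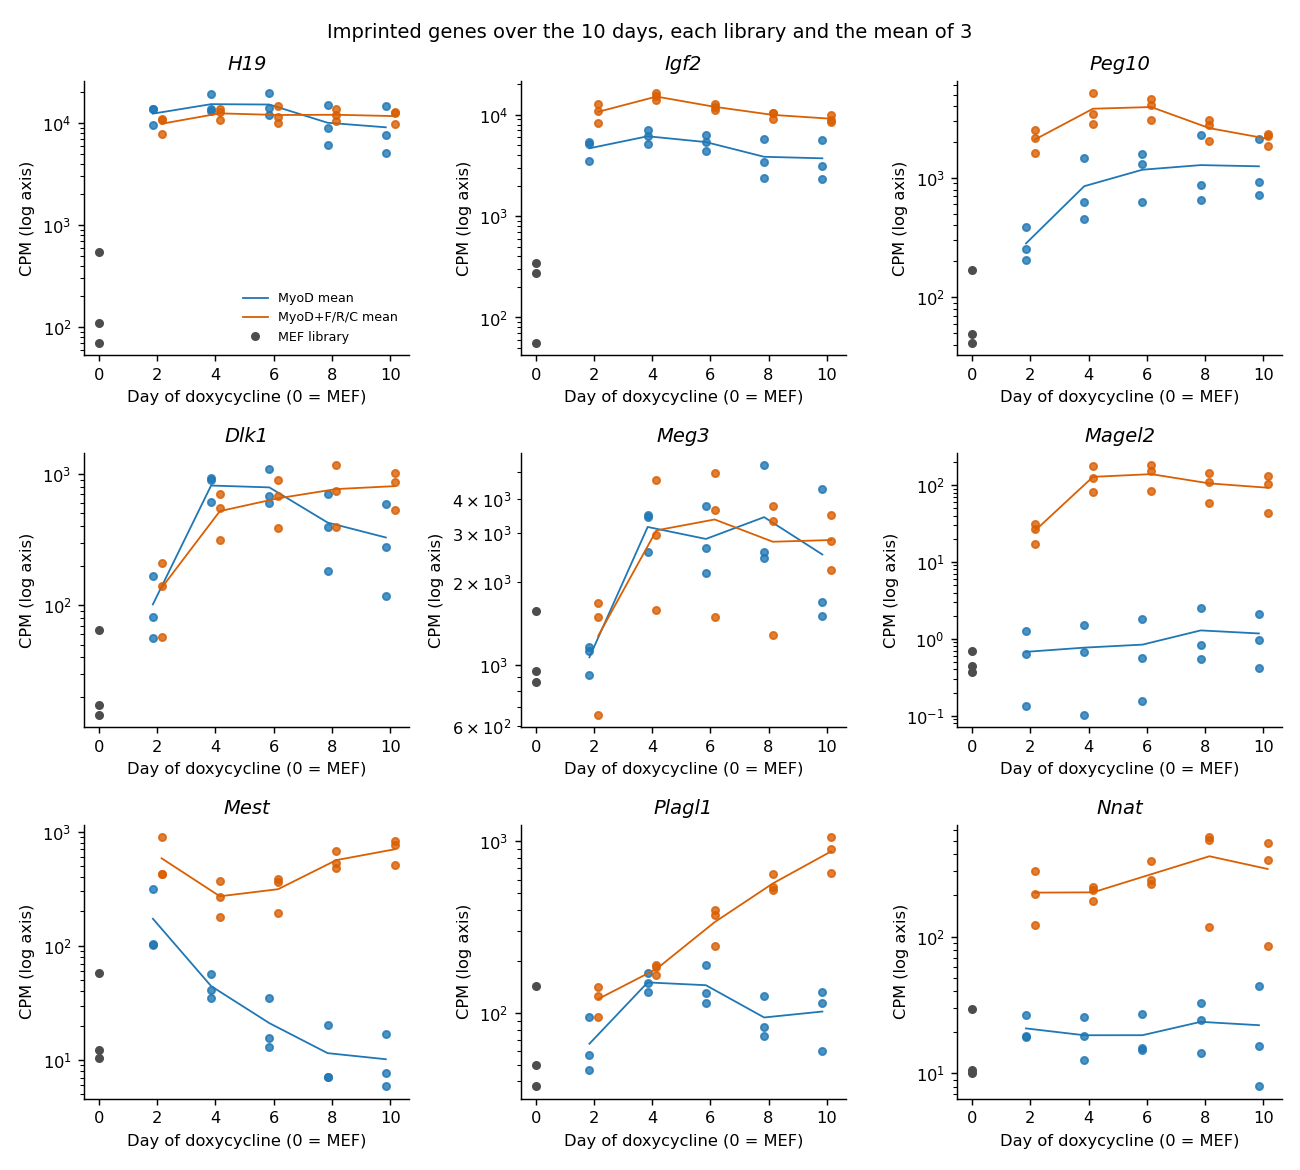
CPM (log axis) of 9 imprinted genes against the day of doxycycline, with MEFs at day 0; points are single libraries and lines join the means of 3. Magel2, Mest and Nnat separate the 2 arms on day 10, Plagl1 separates them from day 6, and H19, Dlk1 and Meg3 overlap between arms.

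The Dlk1-Meg3 domain on chromosome 12 was higher than in MEFs on day 10 of both arms and in bulk iMPCs, and low in myoblasts. Of its 5 genes, 4 were called higher on day 10 of MyoD (all genes: 14.3%), 5 on day 10 of MyoD+F/R/C (19%) and 4 in bulk iMPCs (19.2%). Pax7+ iMPCs were not tested against MEFs. They were below every MEF library for Meg3 (162, 212 and 507 CPM) and Rian (126, 122 and 237). Mirg (7.76, 12.5 and 21.1) and Dlk1 (38.6, 286 and 626) overlapped MEFs, and Rtl1 was above them (0.997, 5.98 and 6.20). Dlk1 (paternal) encodes a membrane protein of the Notch ligand family found in fetal muscle. Rtl1 (paternal) derives from a retrotransposon and has a role in placenta and fetal muscle. Meg3, Rian and Mirg (maternal) are noncoding RNAs that carry small nucleolar RNAs and microRNAs. The start windows of Dlk1 (chr12:109452573-109452872, plus strand) and Meg3 (chr12:109540746-109541045, plus strand; both build GRCm38.p6, RefSeq, CG in capitals) are shown because the 2 are read from opposite parental copies and both were low in myoblasts.
Dlk1: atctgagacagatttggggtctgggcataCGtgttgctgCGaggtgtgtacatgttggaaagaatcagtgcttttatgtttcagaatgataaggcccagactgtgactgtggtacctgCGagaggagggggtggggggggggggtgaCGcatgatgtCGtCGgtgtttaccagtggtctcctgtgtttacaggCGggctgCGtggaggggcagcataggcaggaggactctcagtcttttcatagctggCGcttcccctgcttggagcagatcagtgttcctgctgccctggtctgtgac
Meg3: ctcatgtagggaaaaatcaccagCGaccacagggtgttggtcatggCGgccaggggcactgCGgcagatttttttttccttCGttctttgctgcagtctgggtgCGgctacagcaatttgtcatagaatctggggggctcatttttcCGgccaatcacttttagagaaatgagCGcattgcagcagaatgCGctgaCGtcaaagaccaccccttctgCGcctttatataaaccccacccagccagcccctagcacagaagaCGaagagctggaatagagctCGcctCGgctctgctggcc
Dlk1 was 14.7, 64.9 and 17.4 CPM in MEFs, 615, 903 and 929 on day 4 of MyoD and 532, 866 and 1024 on day 10 of MyoD+F/R/C. It was higher than in MEFs on day 10 of MyoD+F/R/C (log2 fold change 4.64, adjusted p = 0.000362, SE 1.03) and on day 10 of MyoD (log2 fold change 3.34, adjusted p = 0.00933, SE 0.97). It lost the second call without MEF replicate 1, MEF replicate 3 or day-10 MyoD replicate 2 (adjusted p = 0.0501 to 0.0729). Rian lost its call on day 10 of MyoD without MEF replicate 1, MEF replicate 3 or day-10 MyoD replicate 2 (adjusted p = 0.0519 to 0.172). Meg3 was already high in MEFs (866, 1561 and 951 CPM), near 1063 on day 2 of MyoD, and reached 2198, 3484 and 2824 on day 10 of MyoD+F/R/C (log2 fold change 1.33, adjusted p = 0.0491, SE 0.57). It lost that call without MEF replicate 1, MEF replicate 3, day-10 MyoD+F/R/C replicate 1, day-10 MyoD+F/R/C replicate 2 or day-10 MyoD+F/R/C replicate 3 (adjusted p = 0.0501 to 0.122). In bulk iMPCs against MEFs, where Meg3 was the gene of the domain not called, it was called without MEF replicate 2 (log2 fold change 1.62, adjusted p = 0.0456) and when the 2 groups were fitted alone (adjusted p = 0.00999). Rtl1 had the largest rise of the domain, from 0.396, 0.0465 and 0 CPM in MEFs to 53.5, 127 and 20.6 on day 10 of MyoD and 39.0, 74.0 and 119 on day 10 of MyoD+F/R/C (the last against MEFs: log2 fold change 8.84, adjusted p = 6.98e-08, SE 1.06). Mirg went from 19.2, 38.2 and 25.6 to 157, 260.4 and 212 CPM over the same interval (log2 fold change 2.92, adjusted p = 9.88e-06, SE 0.49). Rian went from 338, 489.7 and 397 to 905, 1432 and 1398 (log2 fold change 1.61, adjusted p = 0.00253, SE 0.44). No gene of the domain was called between the arms on day 2 or day 10, other than Rtl1 on day 2 under the replicate block and Mirg on day 10 without day-10 MyoD replicate 2 (log2 fold change 1.48, adjusted p = 0.0217). Over the average of 5 days Rtl1 alone was (log2 fold change 1.09, adjusted p = 0.00286, SE 0.31), with a log2 fold change of 0.98 under the replicate block, below the size set for a call.

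Between iMPCs and myoblasts all 5 genes of the domain were called higher, in bulk and after sorting (all genes: 10.9% and 12.4%). Of 10 fibroblast genes, 10 were called higher in iMPCs in bulk and 3 after sorting. They summed to 2114 to 3743 CPM in bulk iMPCs against 340.2 to 585 in bulk myoblasts, and to 592 to 1493 against 266 to 913 after sorting, and their part in the results was not tested. In bulk, Meg3 was 2817, 2235 and 2907 CPM in iMPCs and 40.6, 42.6 and 28.5 in myoblasts (log2 fold change 6.16, adjusted p = 1.78e-07, SE 0.70). Rian was 1852, 1281 and 1702 and 34.9, 21.2 and 17.0 (log2 fold change 6.05, adjusted p = 1.57e-09, SE 0.53). Mirg was 165, 120.3 and 167 and 1.71, 3.18 and 1.38 (log2 fold change 6.15, adjusted p = 5.98e-09, SE 0.58). Dlk1 was 314, 326 and 454 CPM against 1.30, 0.275 and 25.6 (log2 fold change 5.33, adjusted p = 0.000306, SE 1.06), with bulk myoblast replicate 3 the highest of the myoblasts. It was not called when these 2 groups were fitted alone (adjusted p = 0.0855). After sorting, Dlk1 had 0 reads in all 3 Pax7+ myoblast libraries and 38.6, 286 and 626 CPM in Pax7+ iMPCs, at least 2537-fold higher against a floor of 3 reads per library, or at least 1301-fold without Pax7+ iMPC replicate 3. Rtl1, also at 0 reads in Pax7+ myoblasts, was 0.997, 5.98 and 6.20 CPM, at least 35.2-fold higher. Meg3 was 162, 212 and 507 CPM against 3.81, 3.32 and 0.109 (log2 fold change 6.89, adjusted p = 9.65e-09, SE 0.74). Rian was 126, 122 and 237 against 1.20, 0.565 and 0 (log2 fold change 8.00, adjusted p = 2.32e-11, SE 0.60). Sorted Mirg was 7.76, 12.5 and 21.1 CPM in iMPCs and 0.177, 0.0706 and 0 in myoblasts. Bulk Rtl1 was 29.4, 18.8 and 39.2 CPM in iMPCs and 0.0449, 0.0250 and 0.218 in myoblasts.

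The noncoding RNAs of the domain were lower in sorted than in bulk cells of both types. Pax7+ iMPCs had less Meg3 (log2 fold change -3.18, adjusted p = 8.43e-05, SE 0.61), Rian (log2 fold change -3.32, adjusted p = 1.28e-06, SE 0.47), Mirg (log2 fold change -3.45, adjusted p = 2.15e-06, SE 0.50) and Rtl1 (log2 fold change -2.73, adjusted p = 0.00274, SE 0.73) than bulk iMPCs, without overlap of libraries, whereas Dlk1 was not called (adjusted p = 0.869). The median of all genes in that comparison was -0.13 on the log2 scale. In the sorted iMPC libraries differentiated-muscle genes summed to 1257 to 1677 CPM, against 18529 to 25024 in bulk, and proliferation genes to 1556 to 1911 against 474 to 1020.4. Sorted cells went straight into lysis buffer and cultured cells were harvested with trypsin, so the sort, the handling and the cell mixture cannot be told apart. Pax7+ myoblasts were lower than bulk myoblasts for Meg3 (log2 fold change -3.91, adjusted p = 0.000271, SE 0.65), Rian (log2 fold change -5.26, adjusted p = 1.46e-07, SE 0.55) and Mirg (log2 fold change -4.45, adjusted p = 0.000462, SE 0.79). Dlk1 fell from 1.30, 0.275 and 25.6 CPM to 0 reads, at least 72.6-fold lower, or at least 6.31-fold lower without bulk myoblast replicate 3. Dlk1 lost that call without bulk myoblast replicate 3 (adjusted p = 0.0554). When the 2 myoblast groups were fitted alone in edgeR, 0 of 27 imprinted genes tested and 0 of 14528 genes in all were called, with 5 imprinted genes at an unadjusted p under 0.05. DESeq2 over all libraries called 6.

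**Figure D5:**
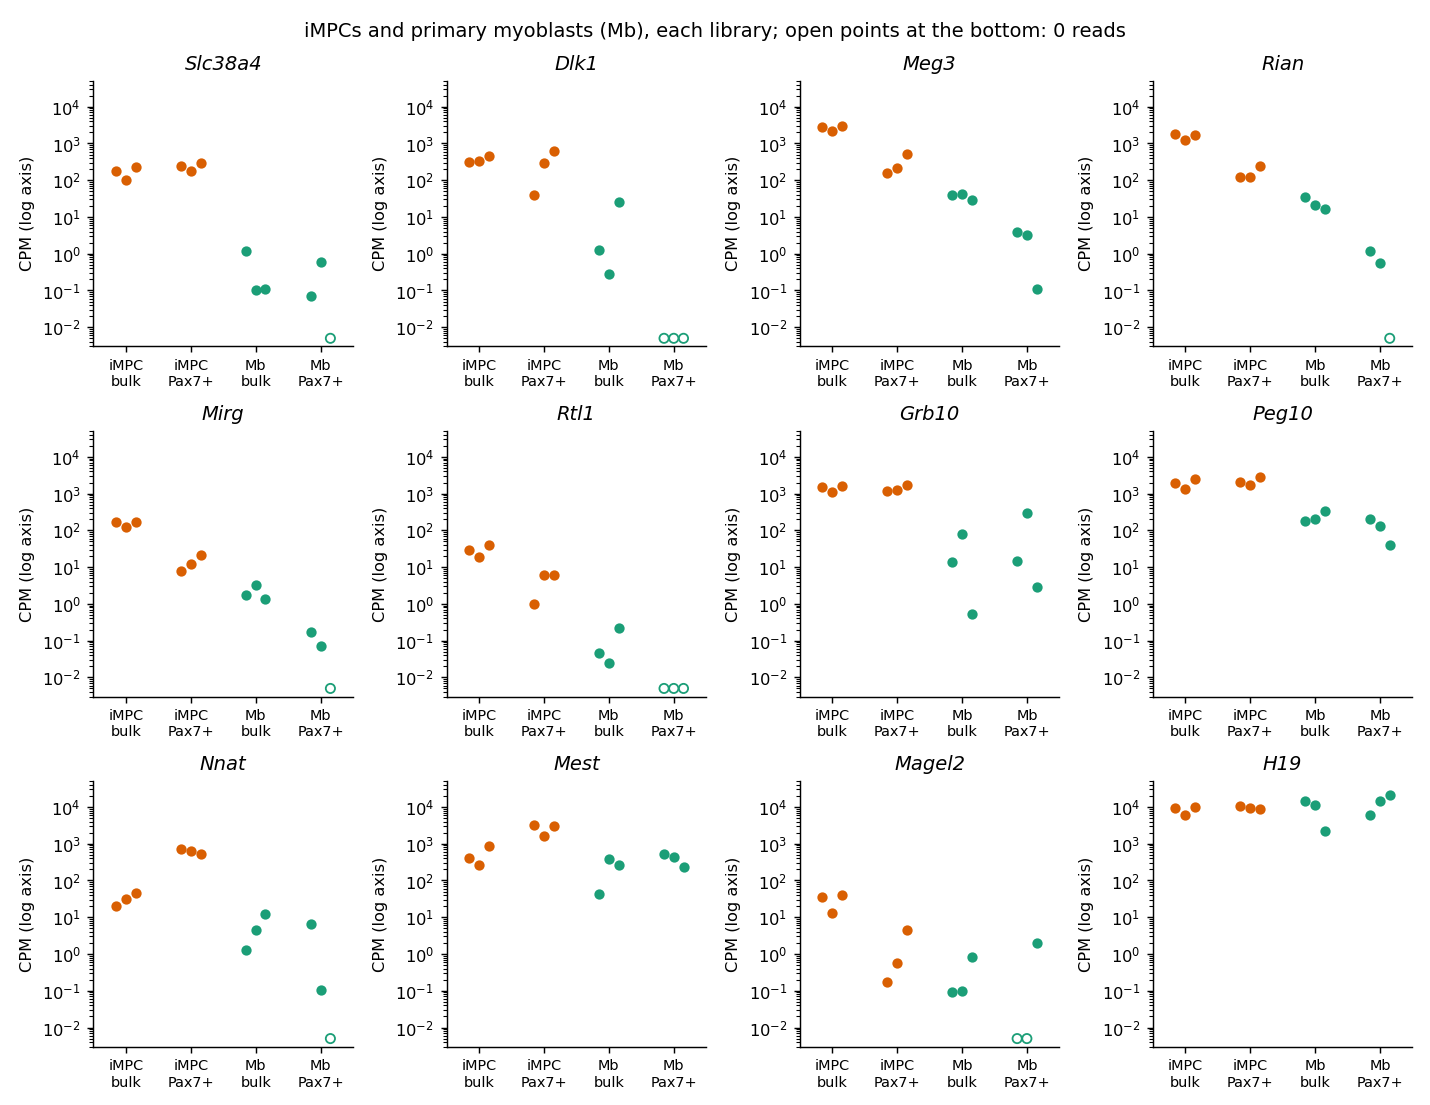
CPM (log axis) of 12 imprinted genes in each library of bulk and Pax7+ iMPCs (orange) and bulk and Pax7+ myoblasts (Mb, green); open points at the bottom are libraries with 0 reads. Slc38a4, the Dlk1-Meg3 genes, Grb10, Peg10 and Nnat do not overlap between iMPCs and myoblasts of the same preparation, and H19 does. Mest overlaps in bulk and Magel2 after sorting. The share of all genes without overlap was not counted.

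The Peg3 domain at the proximal end of chromosome 7 was higher in all 5 comparisons with MEFs, with all 3 of its genes called each time (all genes called higher: 11.5% to 19.2%). Peg3, a paternally expressed zinc-finger protein of progenitor cells and muscle, was 706, 155 and 188 CPM in MEFs, 869, 1025 and 1162 on day 2 of MyoD and 1562, 1729.9 and 1336 on day 10 of MyoD+F/R/C (log2 fold change 2.14, adjusted p = 0.000166, SE 0.45, day 10 with F/R/C against MEFs). Zim1, a maternally expressed zinc-finger gene next to it, rose further, from 14.1, 5.39 and 13.1 CPM to 88.0, 91.1 and 119 and 422, 495 and 462 (log2 fold change 5.41, adjusted p = 3.38e-10, SE 0.48). Usp29, which shares the Peg3 promoter region in the other orientation and encodes a ubiquitin protease, went from 8.62, 0.790 and 1.90 to 53.3, 63.0 and 58.7 (log2 fold change 3.93, adjusted p = 2.39e-06, SE 0.60). The Peg3 and Usp29 rises met a wide spread in MEFs, where replicate 1 was high: when the 2 groups were fitted alone, neither was called on day 2 of MyoD (adjusted p = 0.0676 and 0.0709) or on day 10 of MyoD (0.212 and 0.108), nor on day 2 of MyoD+F/R/C (0.0617 and 0.057). On day 10 of MyoD Peg3 also lost its call without MEF replicate 2, MEF replicate 3 or day-10 MyoD replicate 2 (adjusted p = 0.133 to 0.271). Zim1 and Usp29 were higher with F/R/C than without on day 10 (422, 495 and 462 against 174, 347 and 113 CPM for Zim1). Usp29 had 17.4, 36.7 and 10.3 CPM with MyoD alone. Zim1 lost the call without day-10 MyoD replicate 1 or day-10 MyoD replicate 3 (adjusted p = 0.0604 to 0.0941). Usp29 lost it without day-10 MyoD replicate 1, day-10 MyoD replicate 3 or day-10 MyoD+F/R/C replicate 2 (adjusted p = 0.0507 to 0.104). Peg3 was not called between the arms on day 10 (adjusted p = 0.122), and was without day-10 MyoD replicate 2 (log2 fold change 1.47, adjusted p = 0.0171). Peg3 in bulk myoblasts and bulk iMPCs overlapped (935, 1289.9 and 1432 in bulk myoblasts, 1359.8, 767 and 1523 in bulk iMPCs; log2 fold change -0.00, SE 0.43). Zim1 was higher in bulk iMPCs than in bulk myoblasts (log2 fold change 1.71, adjusted p = 0.00171, SE 0.41; 0.0681 when these groups were fitted alone).

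Mest, a paternally expressed gene of the alpha/beta hydrolase fold family that is used as a marker of fetal mesoderm, had the second largest difference between the arms on day 10, after Magel2. Its start at 30733506 (chr6:30733256-30733555, plus strand, build GRCm38.p6, RefSeq) has 8 CG, in capitals, and 1 CAGCTG, an E-box of the kind MyoD binds. That start held 28.0% of Mest TPM on day 10 of MyoD+F/R/C. The start at 30738050 held 60.1%, and its window (chr6:30737800-30738099) has 17 CG and 0 CAGCTG.
Mest: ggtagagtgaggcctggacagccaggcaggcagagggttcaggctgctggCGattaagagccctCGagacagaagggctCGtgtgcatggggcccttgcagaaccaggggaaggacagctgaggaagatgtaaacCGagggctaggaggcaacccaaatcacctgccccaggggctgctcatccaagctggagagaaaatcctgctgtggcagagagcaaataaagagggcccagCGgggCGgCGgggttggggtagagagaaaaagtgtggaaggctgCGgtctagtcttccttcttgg
Mest was 57.7, 12.3 and 10.3 CPM in MEFs and rose by day 2 in both arms, to 104, 101 and 314 with MyoD and 427, 429.5 and 895 with F/R/C. The MyoD arm had 35.1, 41.0 and 57.2 on day 4 and 7.68, 16.9 and 5.89 on day 10, overlapping the MEF range. Without MEF replicate 3 it was called lower than in MEFs on day 10 of MyoD (log2 fold change -1.86, adjusted p = 0.0429). The F/R/C arm had 180.4, 265 and 369 and 823, 764 and 513, above every MyoD library of the same day on all 5 days. The day-2 difference between the arms was not called in the fit over all libraries. It was called by DESeq2 (log2 fold change 1.77, adjusted p = 0.0411) and without day-2 MyoD replicate 3 (log2 fold change 2.53, adjusted p = 0.045). On day 10 the arms differed (log2 fold change 6.11, adjusted p = 1.12e-06, SE 0.79). The change of the effect from day 2 to day 10 was called (log2 change 4.35, adjusted p = 0.00648, SE 0.93) whichever library was left out. The highest values of all were in Pax7+ iMPCs, 3300.4, 1590.3 and 2976 CPM, above bulk iMPCs with 398, 271 and 885 (log2 fold change 2.34, adjusted p = 0.00399, SE 0.66). Pax7+ myoblasts had 518, 448 and 234 (log2 fold change 2.71, adjusted p = 0.0012, SE 0.67, Pax7+ iMPCs against them). By start, 30733506 held 28.0% of Mest TPM on day 10 of MyoD+F/R/C and 60.1% came from 30738050, while in bulk iMPCs the shares were 94.5% and 1.36% and in Pax7+ iMPCs 88.4% and 7.61%. The shares are model estimates and were not tested. Copg2, a coat protein gene that overlaps the end of Mest on the other strand, was called in none of the 14 comparisons and ranged over 45.5 to 105 CPM.

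In the Peg10-Sgce cluster on chromosome 6, Peg10, a retrotransposon-derived gene needed for the placenta, rose in all 5 comparisons with MEFs. It was 168, 49.2 and 41.6 CPM in MEFs, 253, 388 and 206 on day 2 of MyoD and 2155, 2500.3 and 1628 on day 2 of MyoD+F/R/C, a difference between arms with no overlap (log2 fold change 2.89, adjusted p = 0.00117, SE 0.56). On day 10 the values were 925, 2113 and 717 and 1848, 2315 and 2225, a difference that was not called (adjusted p = 0.252). The change of the effect from day 2 to day 10 was not called either (log2 change -2.12, adjusted p = 0.0683, SE 0.75). It was called when the 4 groups were fitted alone (adjusted p = 0.0286) and by DESeq2 (adjusted p = 0.0386). Peg10 was also higher in bulk iMPCs (1905, 1327 and 2457) than in bulk myoblasts (183, 209 and 343; log2 fold change 2.95, adjusted p = 0.000167, SE 0.56). It was also higher in Pax7+ iMPCs (2077, 1723 and 2781) than in Pax7+ myoblasts (198, 130.1 and 40.4; log2 fold change 4.16, adjusted p = 1.19e-06, SE 0.60). Ppp1r9a, a maternally expressed actin-binding scaffold known as neurabin, went from 5.27, 1.77 and 2.16 CPM in MEFs to 59.4, 85.9 and 82.2 on day 10 of MyoD+F/R/C (log2 fold change 4.61, adjusted p = 1.93e-09, SE 0.46) and 110.2, 209 and 151 in Pax7+ iMPCs. Its F/R/C effect was called on day 2 (log2 fold change 1.64, adjusted p = 0.00932, SE 0.41), a call lost without day-2 MyoD+F/R/C replicate 3 (adjusted p = 0.0537). Asb4, a ubiquitin ligase subunit, was highest in Pax7+ iMPCs (126, 238 and 38.7 CPM against 4.62, 0.777 and 13.2 in Pax7+ myoblasts; log2 fold change 4.46, adjusted p = 8.01e-05, SE 0.86). Its rise over bulk iMPCs was lost without Pax7+ iMPC replicate 2 (adjusted p = 0.0873). Sgce, the epsilon-sarcoglycan of the dystrophin complex, was called once with all libraries, higher in bulk iMPCs (26.1, 62.0 and 38.5) than in bulk myoblasts (12.7, 16.8 and 24.0; log2 fold change 1.24, adjusted p = 0.000338, SE 0.25). It lost that call without bulk iMPC replicate 2 (log2 fold change 0.86) and when these groups were fitted alone (adjusted p = 0.109). Without bulk myoblast replicate 3 it was called higher in Pax7+ than in bulk myoblasts (log2 fold change 1.05, adjusted p = 0.0125).

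The Snrpn domain of central chromosome 7, the counterpart of the human Prader-Willi region, held the largest F/R/C effect of the list, on Magel2, and an effect of opposite sign, on Snrpn. Magel2, a paternally expressed gene for a partner of ubiquitin ligases in endosomal sorting, is a single-exon gene; its start window (chr7:62376729-62377028, plus strand, build GRCm38.p6, RefSeq, 10 CG in capitals) held no CAGCTG.
Magel2: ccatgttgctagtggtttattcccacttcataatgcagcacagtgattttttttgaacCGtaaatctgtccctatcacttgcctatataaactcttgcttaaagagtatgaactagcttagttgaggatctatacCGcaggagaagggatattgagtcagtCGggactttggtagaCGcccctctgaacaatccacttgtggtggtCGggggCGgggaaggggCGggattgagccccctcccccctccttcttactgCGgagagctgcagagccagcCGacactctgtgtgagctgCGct
Magel2 was 0.44, 0.372 and 0.697 CPM in MEFs and 0.632, 1.26 and 0.135 on day 2 and 0.972, 2.13 and 0.418 on day 10 of MyoD, against 17.4, 31.7 and 27.1 and 43.4, 132 and 102 with F/R/C. Its mean peaked at 139 CPM on day 6 with F/R/C. All 15 F/R/C libraries lay above all 15 MyoD libraries (log2 fold change 6.54, adjusted p = 7.27e-13, SE 0.49, average of 5 days). The difference was called on day 2 (log2 fold change 5.27, adjusted p = 0.00169, SE 1.07) and on day 10 (log2 fold change 6.33, adjusted p = 3.02e-05, SE 1.06). Bulk iMPCs kept 36.2, 13.1 and 39.1 CPM, and Pax7+ iMPCs had 0.173, 0.566 and 4.60 (log2 fold change -4.09, adjusted p = 0.000808, SE 0.96, Pax7+ against bulk). Bulk myoblasts had 0.0897, 0.100 and 0.837. Ndn, its neighbour and a growth-suppressing relative known as necdin, was 73.8, 60.0 and 54.9 CPM on day 10 of MyoD and 81.3, 204 and 226 with F/R/C (log2 fold change 1.34, adjusted p = 5.88e-06, SE 0.23, average of 5 days). It was lower in Pax7+ iMPCs (15.3, 22.9 and 33.4) than in bulk iMPCs (78.6, 41.9 and 83.3), a call lost without Pax7+ iMPC replicate 1, Pax7+ iMPC replicate 2 or bulk iMPC replicate 3 (adjusted p = 0.0518 to 0.0731). Snrpn, which encodes a splicing factor subunit, went the other way: 37.3, 53.4 and 21.1 CPM on day 10 of MyoD and 10.5, 9.64 and 12.6 with F/R/C (log2 fold change -1.77, adjusted p = 0.000936, SE 0.41). Over the average of 5 days it was lower as well (log2 fold change -1.26, adjusted p = 3.61e-07, SE 0.18). Snurf lies on the same strand within it, and reads of the 2 genes cannot be fully told apart. Peg12, a paternally expressed relative of the Frat proteins that bind the kinase GSK-3, was 6.28, 6.08 and 9.80 CPM and 6.43, 7.08 and 8.47 on day 2 and 6.20, 2.48 and 5.19 and 22.3, 23.3 and 14.7 on day 10 of MyoD and MyoD+F/R/C. The change of the effect was called (log2 change 2.13, adjusted p = 0.0184, SE 0.56). That call was lost without day-2 MyoD replicate 3, day-2 MyoD+F/R/C replicate 1 or day-10 MyoD+F/R/C replicate 2 (adjusted p = 0.0541 to 0.0577). Peg12 was highest in Pax7+ iMPCs (30.9, 44.5 and 54.7; log2 fold change 2.81, adjusted p = 1.68e-06, SE 0.41 against Pax7+ myoblasts). Mkrn3, a ring-finger protein gene, stayed low, at 0.212 to 5.23 CPM over all libraries, and was called once, higher on day 10 of MyoD+F/R/C than in MEFs (log2 fold change 2.04, adjusted p = 0.00317, SE 0.57).

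The 3 members of the Kcnq1ot1 cluster, on distal chromosome 7 next to H19, did not exceed 17.4 CPM in any library. Cdkn1c, another gene of this cluster, was far above that in several groups and is described with the further imprinted genes. Kcnq1ot1, the antisense RNA that silences the cluster on the paternal copy, was 4.07, 6.34 and 3.03 CPM on day 10 of MyoD and 8.47, 17.4 and 8.97 with F/R/C (log2 fold change 1.37, adjusted p = 0.00136, SE 0.33). It overlaps Kcnq1, which is read in the other direction. Slc22a18, a maternally expressed transporter-like gene, was the member called lower most often, in 6 of 14 comparisons and higher in none. It was 1.58, 1.49 and 1.46 CPM in MEFs, 3.15, 1.54 and 3.10 on day 10 of MyoD, 0.318, 0.0974 and 0.565 with F/R/C (log2 fold change -2.94, adjusted p = 0.00146, SE 0.71), 0.109, 0 and 0.0269 in bulk iMPCs, and 0 reads in Pax7+ iMPCs. Phlda2, a maternally expressed inhibitor of placental growth, did not exceed 0.596 CPM, so its calls rest on few reads. On day 10 it was 0.596, 0.536 and 0.494 CPM with F/R/C and 0.0926, 0.198 and 0.105 without (log2 fold change 2.02, adjusted p = 0.0291, SE 0.74). That call was lost without day-10 MyoD replicate 1, day-10 MyoD replicate 3 or day-10 MyoD+F/R/C replicate 1 (adjusted p = 0.0657 to 0.0778).

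The remaining members are each the only gene of the list in their region. Gnas, Nnat and Zrsr1 overlap genes of the list of further imprinted genes (Nespas, Blcap and Commd1). Gnas encodes the stimulatory G protein alpha subunit and, from alternative starts, proteins that include the maternally expressed Nesp55. As a gene it was called once, in Pax7+ iMPCs against Pax7+ myoblasts (log2 fold change 1.01, adjusted p = 0.000281, SE 0.22), a call that leaving out Pax7+ iMPC replicate 1, Pax7+ myoblast replicate 1 or Pax7+ myoblast replicate 2 ended by bringing the log2 fold change just under 1. Its transcript from the Nesp start (174284320; chr2:174284070-174284369, plus strand, build GRCm38.p6, RefSeq, CG in capitals) was a different case.
Gnas, Nesp start: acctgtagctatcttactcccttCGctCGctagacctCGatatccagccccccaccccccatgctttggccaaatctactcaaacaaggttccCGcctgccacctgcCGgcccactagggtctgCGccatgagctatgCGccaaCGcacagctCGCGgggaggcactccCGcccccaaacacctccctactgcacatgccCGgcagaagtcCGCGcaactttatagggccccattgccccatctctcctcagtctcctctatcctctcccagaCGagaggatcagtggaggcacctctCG
This transcript had 1.80, 0 and 0.135 TPM in MEFs, 34.1, 43.8 and 59.3 on day 2 of MyoD, 101, 126 and 122 on day 2 of MyoD+F/R/C, 172, 356 and 99.5 on day 10 of MyoD and 203, 228 and 261 on day 10 of MyoD+F/R/C. The start that gives the G protein (174330006) had 717 ± 13.7 TPM in MEFs and 524 ± 81.2 on day 10 of MyoD+F/R/C. All transcripts of the Nesp start together went from 0.0368% of Gnas TPM in MEFs to 12.7% on day 10 of MyoD+F/R/C and 10.8% in bulk iMPCs. The single transcript above had 277, 152 and 148 TPM in bulk iMPCs and 14.5, 30.7 and 46.8 in Pax7+ iMPCs. In myoblasts it had 50.6, 46.6 and 2.67 TPM in bulk and 4.17, 9.31 and 13.1 after sorting. For this transcript every induced library and every iMPC library was above every MEF library. Transcript levels were not tested, and Nespas, which lies on the other strand of the Nesp exon, had 3.07 ± 0.86 CPM in bulk iMPCs and 0.553 ± 0.379 in bulk myoblasts.

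Nnat, a small membrane protein gene called neuronatin and known from brain and fat tissue, was higher with F/R/C on both days tested. It was 29.6, 10.1 and 10.7 CPM in MEFs, 26.6, 18.8 and 18.6 on day 2 and 43.6, 8.03 and 15.8 on day 10 of MyoD, against 302, 206 and 121 and 488, 364 and 85.1 with F/R/C. All 15 F/R/C libraries were above all 15 MyoD libraries (log2 fold change 3.70, adjusted p = 1.3e-09, SE 0.39, average of 5 days). The call on day 2 was lost without day-2 MyoD replicate 2 or day-2 MyoD replicate 3 (adjusted p = 0.0666 to 0.0791). In bulk iMPCs it was 20.1, 30.5 and 44.4 CPM (log2 fold change -3.30, adjusted p = 0.00609, SE 0.86, against day 10 of MyoD+F/R/C). Pax7+ iMPCs had 711, 635 and 524, the highest of all groups (log2 fold change 4.30, adjusted p = 0.000224, SE 0.90, against bulk iMPCs), and Pax7+ myoblasts 6.74, 0.106 and 0 (log2 fold change 8.04, adjusted p = 4.47e-07, SE 1.08, Pax7+ iMPCs against Pax7+ myoblasts). Nnat lies within an intron of Blcap, which is read on the other strand.

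Slc38a4, a paternally expressed amino acid transporter, had the largest fold change between bulk iMPCs and bulk myoblasts. It was 181, 105 and 223 CPM in bulk iMPCs and 1.17, 0.100 and 0.109 in bulk myoblasts (log2 fold change 8.69, adjusted p = 1.57e-09, SE 0.76). It was 248, 176 and 300.1 in Pax7+ iMPCs and 0.0706, 0.600 and 0 in Pax7+ myoblasts (log2 fold change 9.91, adjusted p = 7.59e-11, SE 0.81). MEFs lay between with 132, 34.1 and 37.2 CPM. Against MEFs, day 10 of MyoD+F/R/C was called without MEF replicate 1 (log2 fold change 2.09, adjusted p = 0.00276) and not with it (adjusted p = 0.0814). Its day-10 values were 144, 127 and 156 in the F/R/C arm and 50.1, 15.6 and 48.1 in the MyoD arm (log2 fold change 1.91, adjusted p = 0.00466, SE 0.53). Fibroblast markers summed in the same order to 2114 to 3743 and 340.2 to 585 CPM in bulk and 592 to 1493 and 266 to 913 after sorting, and their part in the result was not tested. Impact, an inhibitor of the amino acid stress kinase Gcn2, fell from MEFs, from 129, 161 and 151 to 71.4, 71.7 and 51.1 CPM on day 10 of MyoD+F/R/C (log2 fold change -1.18, adjusted p = 2.99e-05, SE 0.22; log2 fold change -0.91 without day-10 MyoD+F/R/C replicate 3). It was 63.7, 38.0 and 59.6 in bulk iMPCs (log2 fold change -1.45, adjusted p = 1.56e-06, SE 0.22). Zrsr1, a splicing factor gene inside an intron of Commd1, was 3.08, 5.90 and 5.69 CPM in Pax7+ iMPCs, below bulk iMPCs with 13.1, 17.3 and 12.6 (log2 fold change -1.55, adjusted p = 1.81e-05, SE 0.26), and Pax7+ myoblasts had 11.6, 27.5 and 13.3 (log2 fold change -1.84, adjusted p = 1.43e-06, SE 0.27).

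Counted by comparison, established iMPCs had 4 members called against day 10 of MyoD+F/R/C and 15 against bulk myoblasts. Against MEFs, bulk iMPCs had 18 imprinted genes higher and 3 lower (all genes: 19.2% and 16.2%). Without MEF replicate 1, Phlda2 and Peg12 lost that call (adjusted p = 0.0513 and 0.0595). Against day 10 of MyoD+F/R/C 0 were higher and 4 lower (all genes: 3.33% and 6.24%): Nnat, Phlda2, Slc22a18 and Peg12. Slc22a18 lost that call without day-10 MyoD+F/R/C replicate 3, bulk iMPC replicate 2 or bulk iMPC replicate 3 (adjusted p = 0.0726 to 0.112). Peg12 lost it without day-10 MyoD+F/R/C replicate 1, day-10 MyoD+F/R/C replicate 2, bulk iMPC replicate 1 or bulk iMPC replicate 2 (adjusted p = 0.0993 to 0.144). The count against day 10 was 2 without bulk iMPC replicate 2. Against bulk myoblasts 14 were higher and 1, Snrpn, lower (all genes: 10.9% and 8.7%). When these groups alone were fitted, 8 were higher and 0 lower. Snrpn lost its call without bulk myoblast replicate 1 or bulk iMPC replicate 2 (adjusted p = 0.0611 to 0.201). Airn lost it without bulk myoblast replicate 3 (adjusted p = 0.099). Nnat lost it without bulk myoblast replicate 1, bulk myoblast replicate 2 or bulk iMPC replicate 3 (adjusted p = 0.0836 to 0.127). Pax7+ iMPCs against Pax7+ myoblasts gave 16 higher and 2 lower (all genes: 12.4% and 17.6%). Pax7+ iMPCs against bulk iMPCs gave 6 higher and 7 lower (9.88% and 20.5%). Pax7+ myoblasts against bulk myoblasts gave 0 higher and 5 lower (2.2% and 4.03%). The fifth of the last was Peg12, which lost its call without bulk myoblast replicate 3, Pax7+ myoblast replicate 1 or Pax7+ myoblast replicate 3 (adjusted p = 0.0615 to 0.184). Without bulk myoblast replicate 3 the counts for bulk iMPCs against bulk myoblasts and for the 2 myoblast groups were 14 and 4.

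Further lists give the setting of these genes, one of other imprinted genes and one of genes that keep imprints. Of 32 further imprinted genes, 26 were tested. With F/R/C on day 10, 5 were higher and 3 lower, or 30.8% of those tested against 23.3% of all genes. In bulk iMPCs against MEFs 8 were higher and 7 lower (57.7% against 35.5%). In bulk iMPCs against bulk myoblasts 9 were higher and 0 lower (34.6% against 19.6%, with 10.9% of all genes called higher). Cdkn1c, a cell-cycle inhibitor of the Kcnq1ot1 cluster, was 2343 ± 523 CPM on day 10 with F/R/C and 39.5 ± 29.7 without (log2 fold change 5.89, adjusted p = 2.4e-05, SE 0.97). Sfmbt2, a Polycomb group gene, went the other way (log2 fold change -2.90, adjusted p = 0.000228, SE 0.58). Of 11 genes that maintain imprints by DNA methylation or its recognition, 10 were tested. None was called on day 2 in either arm against MEFs or between the arms. On day 10 3 of 10 were higher and 0 lower with F/R/C (all genes: 9.91% and 13.4%). Pax7+ iMPCs against bulk iMPCs gave 5 of 10 higher and 0 lower (all genes: 9.88% and 20.5%). Among them were Dnmt1, the maintenance DNA methyltransferase (log2 fold change 1.89, adjusted p = 6.23e-05, SE 0.36), and its partner Uhrf1 (log2 fold change 2.25, adjusted p = 0.0021, SE 0.59). The proliferation sum was 1556 to 1911 CPM in the Pax7+ iMPC libraries against 474 to 1020.4 in bulk, and its part in the result was not tested. RefSeq start windows of 300 bases were at hand for 29 of the 34 members, 46 windows in all. CAGCTG, which reads the same on both strands, was in 5 of them (10.9%), against 16.3% of 32851 windows of all genes, and TGCCGC, on either strand, was in 11 (23.9%) against 11.6%. The median number of CG was 10.5 against 7. A match is a description of these letters only.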

How the data were processed

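Poly-A RNA was sequenced with a stranded kit as 100-base single-end reads, per the labels' protocols. The deposited files hold kallisto 0.44 expected (estimated) counts and TPM per transcript. The submitters' processing notes also name Trimmomatic 0.36, edgeR 3.28 and the build GRCm38.p6. The strand setting and the transcript release are not given in the sources used here. The median difference between a transcript's length and its effective length was 152.81 bases in the 39 unsorted libraries and 180.03 in the 6 sorted ones.

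Expected counts as deposited were summed per gene and rounded. One edgeR 4.0.16 quasi-likelihood fit (TMM scaling, filterByExpr by group, no replicate block) covered all 45 libraries, with 30 residual degrees of freedom. p-values were Benjamini-Hochberg adjusted over 17325 genes in each of the 14 comparisons, and the text's adjusted p-values are edgeR's unless DESeq2 (1.42.0) is named. TPM, summed per gene as deposited, served for levels between genes, starts and ratios, without tests. The fit was tested on simulated counts.

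Members and lists were chosen with earlier results of these data known. The rule for named genes was all members called, at most the 5 largest changes in each direction, and H19, Igf2, Dlk1, Meg3, Peg3, Mest, Igf2r, Grb10, Plagl1 and Gnas in any case; other members and genes were picked for mention after their values were seen. Replicate numbers were taken to pair libraries where all same-numbered pairs correlated above 0.1 in their deviations from the group means, which held on day 2 of the 2 arms (0.346 to 0.375) and not on day 10 (lowest 0.062) or in the other comparisons. No replicate pair agreed within sampling noise (45 pairs; chi-square per degree of freedom at least 26.2). Alternatives were RLE scaling, no filter, no minimum fold change, a replicate block, a fit of only the groups compared, DESeq2, and each library left out.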

Additional observations from a re-analysis of the deposited data

Results flagged for a closer look

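The effect of F/R/C, the MyoD+F/R/C level against the MyoD level, differed between day 10 and day 2 for 3 imprinted genes by the interaction term of the edgeR fit. For Mest the log2 difference of the effects was 4.35, for Plagl1 it was 2.23 and for Peg12 it was 2.13, each larger on day 10. Mest passed whichever library was left out. Plagl1 did not pass without day-10 MyoD replicate 1 or day-10 MyoD+F/R/C replicate 2, and Peg12 did not pass without day-2 MyoD replicate 3, day-2 MyoD+F/R/C replicate 1 or day-10 MyoD+F/R/C replicate 2.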

How the results depend on the processing

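RLE scaling ended no call and added 1, Airn for the change of the F/R/C effect (adjusted p = 0.0458). No gene called in the fit over all libraries reversed its direction under any alternative run. The number of imprinted genes called over the average of 5 days of F/R/C was 13, and 23 with no minimum fold change. The change of the F/R/C effect gave 3, against 7 with the compared groups fitted alone and 5 with DESeq2. With the compared groups fitted alone, bulk iMPCs against bulk myoblasts gave 8 in place of 15, and Pax7+ against bulk myoblasts 0 in place of 5, in a fit that tested fewer genes and had fewer libraries. With each library left out in turn, the counts ran from 8 to 10 for day 2 of MyoD against MEFs, 12 to 13 for day 2 of MyoD+F/R/C, 8 to 12 for day 10 of MyoD, 21 to 25 for day 10 of MyoD+F/R/C, 3 to 4 for F/R/C on day 2, 9 to 18 on day 10, 12 to 14 over the 5 days and 1 to 4 for the change of the effect. They ran from 19 to 21 for bulk iMPCs against MEFs, 2 to 4 against day 10 of MyoD+F/R/C, 14 to 15 against bulk myoblasts, 16 to 22 for Pax7+ iMPCs against Pax7+ myoblasts, 10 to 13 against bulk iMPCs, and 4 to 7 for Pax7+ against bulk myoblasts. The replicate block gave 6 calls in place of 4 for F/R/C on day 2, where numbers paired the libraries. Elsewhere it moved counts by at most 2 (12 in place of 13 over the 5 days). It ended the call of Rtl1 over the 5 days (log2 fold change 0.98) and added Meg3 in bulk iMPCs against MEFs (adjusted p = 0.029). Over the 5 days the 15 same-numbered pairs of the 2 arms correlated at 0.062 to 0.375 (mean 0.265). MyoD replicate 2 had the lowest fibroblast sum of its group on each of the 5 days. Links between same-numbered libraries of different days were not modelled in the main fit. Without the filter, Mirg on day 2 of MyoD (adjusted p = 0.0572) and Peg12 in bulk iMPCs against day 10 (0.0566) were not called. Depth limits Phlda2, Slc22a18 and Nap1l5, whose reads lie near the floor of 3 in many libraries.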

Other observations

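Imprinted genes outside the list also differed between iMPCs and myoblasts, in comparisons that were chosen for mention after the values were seen. Cdkn1c, a cell-cycle inhibitor, was 667 ± 181 CPM in bulk iMPCs and 11.2 ± 18.2 in bulk myoblasts (mean ± SD, n = 3; edgeR log2 fold change 5.88, SE 0.97, adjusted p = 2.9e-05), and 1122 ± 738 against 33.4 ± 19.9 after sorting. Zdbf2, a paternally expressed zinc-finger gene, was 411 ± 84.5 CPM in bulk iMPCs and 94.2 ± 88.5 in bulk myoblasts (log2 fold change 2.13, SE 0.72, adjusted p = 0.0212 by edgeR). Among the genes that keep imprints, the KRAB zinc-finger gene Zfp57 was lower in Pax7+ iMPCs, at 17.3 ± 7.40 CPM, than in Pax7+ myoblasts, at 45.1 ± 22.7 (log2 fold change -1.38, SE 0.38, adjusted p = 0.00331 by edgeR), whereas its cofactor Trim28 was higher, at 613 ± 57.1 against 181 ± 13.1 (log2 fold change 1.76, SE 0.20, adjusted p = 1.79e-08 by edgeR). Dnmt3a, a de novo DNA methyltransferase, was higher in iMPCs in both preparations, with log2 fold changes of 1.42 in bulk (SE 0.30) and 2.15 after sorting (SE 0.30).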
